A study of Mus musculus with 6 samples.

Results

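Labelled knockout clone 2 of mouse neural progenitor cells was compared with cells labelled parental, gene by gene and then by pathway. The genes described are the 14904 of 42365 in the count table whose mean over the 2 parental and 2 clone 2 libraries was at least 1 CPM (counts scaled to a common library total); all 14904 entered the test, and 12061 of them are protein-coding. The cells are cultured neural progenitors of the mouse, labelled NPC, with no added treatment in the labels. The parental group is 2 libraries labelled as parental clones 1 and 2 with the genotype label WT; the clone 2 group is 2 libraries of 1 clone with the genotype label KO; 2 libraries of a second labelled knockout clone, clone 1, serve as a further reference. The genotype is taken from the labels alone, and a single clone stands for it here. What belongs to the clone and what belongs to the genotype can thus not be told apart. The labels name an ultra-low-input and a standard library kit without saying which library had which. If the kit differed between the groups, its part could not be told apart either. The parental libraries are labelled as separate clones, while for clone 2 the labels do not say whether its 2 libraries were cultured apart, so each p-value covers no more than the spread from library to library, possibly a technical one.

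Neural progenitors divide, stay undifferentiated under growth factors such as FGF and EGF, and can give rise to neurons, astrocytes and oligodendrocytes. Leaving that state usually goes with withdrawal from the cell cycle and with changes in energy use, cytoskeleton and surface proteins. The 6 libraries held 58871554 to 69530032 counts, and the number of genes with a count was 37678 and 37419 in parental cells against 31262 and 30747 for clone 2. Across genes, the log2 CPM of clone 2 libraries correlated with those of parental libraries at 0.933 to 0.934. With those of clone 1 the correlation was 0.978 to 0.981. Within groups it was 0.9934 for parental cells, 0.9929 for clone 2 and 0.992 for clone 1. The chi-square per gene, which grows as 2 libraries differ, was 3.78, 5.33 and 24.8 in the same order. The clone 1 pair, on which comparisons with clone 1 rest, was thus the least alike. The parental pair, labelled as separate clones, was no less alike than that of clone 2. Genes are not independent replicates.

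Of the 14904 genes, 9916 (66.5%) differed between clone 2 and parental cells in edgeR's quasi-likelihood test with Benjamini-Hochberg adjustment at 0.05, in a fit of all 6 libraries. Clone 2 was higher for 5299 (35.6%) and lower for 4617 (31.0%). A change of at least 1 on the log2 scale, which is 2-fold, was seen for 1333 higher (8.94%) and 1501 lower genes (10.1%). The median log2 fold change over all 14904 was 0.05. With so many genes called, the counts of each list below are read against these shares. Of the 114 mitosis genes 113 rose and 1 fell, and of the 40 astrocyte markers 28 fell and 11 rose. Against clone 1, clone 2 was higher for 3386 genes (22.7%) and lower for 4192 (28.1%), with a median of -0.012. That balance turned with upper quartile scaling (3760 higher, 3725 lower, median 0.016) and with a minimum of 5 CPM (3334 higher, 3285 lower). In that contrast protein-coding genes of the lowest quintile of exonic GC content had a median of -0.217 and those of the highest quintile 0.139, against 0.027 and 0.02 in the contrast with parental cells. The part of GC content in single results against clone 1 was not tested.

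**Figure D1:**
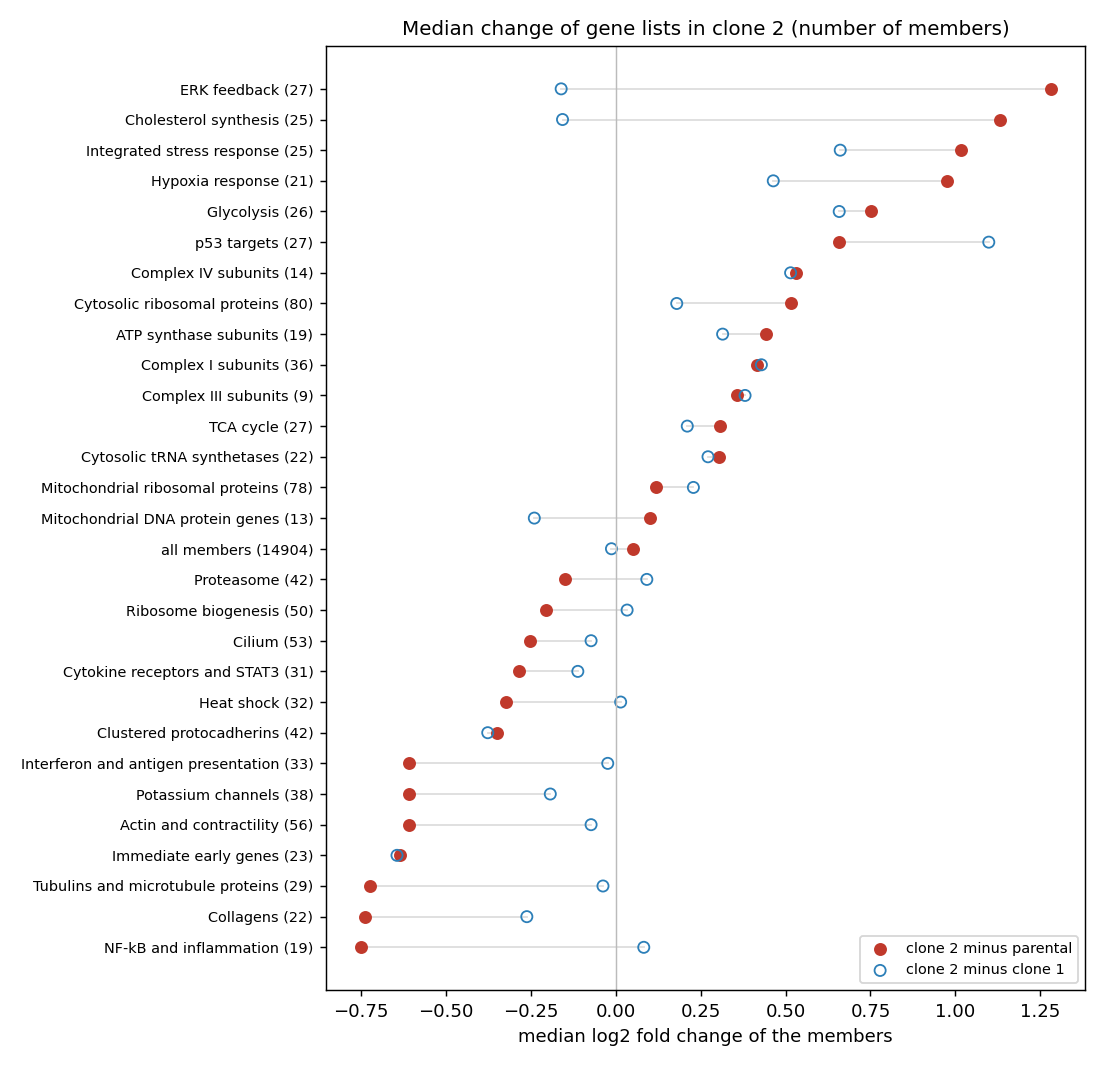
Median log2 fold change of the members of 28 gene lists and of all 14904 genes (number of members in brackets), clone 2 minus parental as filled points and clone 2 minus clone 1 as open points. Glycolysis, stress response and p53 target lists lie to the right of 0 in both contrasts, while cholesterol synthesis and ERK feedback lie to the right against parental cells and slightly to the left against clone 1.

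Outside the mitosis and astrocyte marker lists, the largest rises included genes of energy metabolism, growth factor binding and the cell surface. These 2 lists need not hold every gene of their kind. Cox6a2 (chr7:128205435-128206387, GRCm38), the heart and muscle form of a cytochrome oxidase subunit, stood at 0.0935 and 0.119 CPM in parental cells and 13.1 and 14.2 in clone 2, a rise of 6.99 ± 0.21 on the log2 scale (log2 fold change ± SE, here and below; adjusted p = 2.91e-14). Clone 1 lay between, at 3.93 and 3.26 CPM. Both secreted binding proteins that follow hold insulin-like growth factors. Igfbp2 rose from 11.7 and 10.8 to 620.3 and 684 CPM (5.86 ± 0.086), and Igfbp3 from 8.07 and 8.28 to 254 and 252 (4.95 ± 0.054). Lrrc32, which tethers latent TGF-beta at the cell surface, rose from 0.483 and 0.56 to 27 and 28.9 CPM (5.74 ± 0.13), and P2rx3, an ATP-gated ion channel, from 0.701 and 0.526 to 24.8 and 26.6 (5.38 ± 0.13). For each of these 5 genes both clone 2 libraries lay above both parental ones. The rule for named genes required that clone 2 and parental values did not overlap, here and below, so it supports nothing. Of all 14904 genes, 6928 had both clone 2 libraries above both parental ones and 5860 had both below. Hmcn1 (extracellular hemicentin; 5.14 ± 0.051), Hydin (a protein of motile cilia; 5.53 ± 0.11), Hsd11b1 (which regenerates active glucocorticoid; 5.36 ± 0.23) and Dusp6 (the phosphatase of ERK; 4.38 ± 0.049) were also among the 15 largest rises, whose other members were Arhgef39, Gsg1l, Gas2l3, Cntn4, Camk1g and Prkch. In bulk RNA, a change in how many cells express a gene and a change in RNA per cell cannot be told apart.

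The largest falls took genes to near the detection limit. Lpl, the lipoprotein lipase gene, had 1749 and 1623 counts in parental cells and 0 and 2 in clone 2, and Cldn34c1, a claudin gene, 802 and 691 against 1 and 1. Rgs4, a brake on G protein signalling, fell from 37.6 and 37.2 to 0.0906 and 0.0811 CPM (-8.73 ± 0.15, adjusted p = 5.25e-17), and Osmr, the oncostatin M receptor, from 20.3 and 19.7 to 0.0453 and 0.0974 (-8.11 ± 0.23). Hspb8, a small heat shock protein, fell from 112 and 111 to 0.272 and 0.519 CPM (-8.15 ± 0.12). Cacng5, a subunit that travels with AMPA receptors, went from 106 and 109 to 0.408 and 0.552 CPM (-7.81 ± 0.10). No clone 2 library reached a parental value for any of these 6 genes, as the rule for named genes required. Rgs4 rested on 6 and 5 counts in clone 2 and Osmr on 3 and 6. Ripply1, Mrgprf, Cadps, Lgi4, Synpo2, Naaa, Csmd1 and Galnt15 were also among the 15 largest falls, and Ripply1 had 1854 and 1783 counts in parental cells and 3 and 3 in clone 2.

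Glycolysis, which turns glucose into pyruvate, was higher in clone 2 than in either other group along most of its steps. Of 26 measured members 16 rose and 7 fell against parental cells, with a median of 0.75; against clone 1, 21 were higher and 2 lower, with a median of 0.66. Hk2, the hexokinase that traps glucose, stood at 7.22 and 5.62 CPM in parental cells, 29.7 and 32.8 in clone 2 and 18.4 and 19.96 in clone 1 (2.28 ± 0.10 against parental). Gpi1, which makes fructose 6-phosphate, stood at 504 and 513, 1199 and 1255 and 582 and 568 CPM in the same order (1.27 ± 0.042). In the later steps, Gapdh went from 792 and 794 to 2221 and 2420.3 CPM (1.55 ± 0.055, adjusted p = 4.83e-13), with 1025 and 1151 in clone 1. Gapdh is often used as a housekeeping control, and no library of the other groups reached its range in clone 2. Pgk1, the phosphoglycerate kinase, rose from 141 and 140.1 to 505 and 514 CPM (1.86 ± 0.053) and stood at 247 and 280.1 in clone 1. Enzymes of the steps around it rose too: Tpi1 by 1.14 ± 0.044, Pgam1 by 1.20 ± 0.042, Eno1 by 1.54 ± 0.039 and Pkm by 1.24 ± 0.064. Ldha, which turns pyruvate into lactate, rose from 155 and 147 to 321 and 341 CPM (1.13 ± 0.054). Pdk1, a kinase that inhibits pyruvate dehydrogenase, rose from 26.1 and 27.2 to 109 and 108 CPM (2.02 ± 0.05). The genes that fell included Eno2, the neuronal enolase and the list's largest fall (-4.26 ± 0.22), and the hexokinase gene Hk1 (-0.28 ± 0.05). Pfkfb3, which makes the activator of phosphofructokinase, fell from 84 and 81.6 to 18.5 and 18.2 CPM (-2.17 ± 0.056), the platelet-type phosphofructokinase gene Pfkp by 1.00 and the lactate transporter gene Slc16a1 by 1.18 on the log2 scale.

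Genes of the hypoxia response showed the same order of groups for several members. That response runs through HIF transcription factors, which are destroyed when oxygen is present. Of 21 measured members, a list that includes some glycolysis genes, 13 rose and 2 fell (median 0.97), and 16 were higher and 4 lower than in clone 1. Vegfa, the vascular growth factor, stood at 91.6 and 89.6 CPM in parental cells, 379.7 and 399 in clone 2 and 182 and 191 in clone 1 (2.10 ± 0.046 against parental, 1.06 ± 0.044 against clone 1). Ddit4, an inhibitor of mTORC1, stood at 18.9 and 16, 89.7 and 97.3 and 26.5 and 32.8 CPM (2.42 ± 0.12 against parental). Egln3, an oxygen sensor that HIF itself induces, rose from 7.36 and 7.35 to 26.4 and 25.1 CPM (1.81 ± 0.081). The factor genes moved in opposite directions, Hif1a by 0.97 ± 0.052 and Epas1, which encodes HIF-2alpha, by -1.85 ± 0.07.

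**Figure D2:**
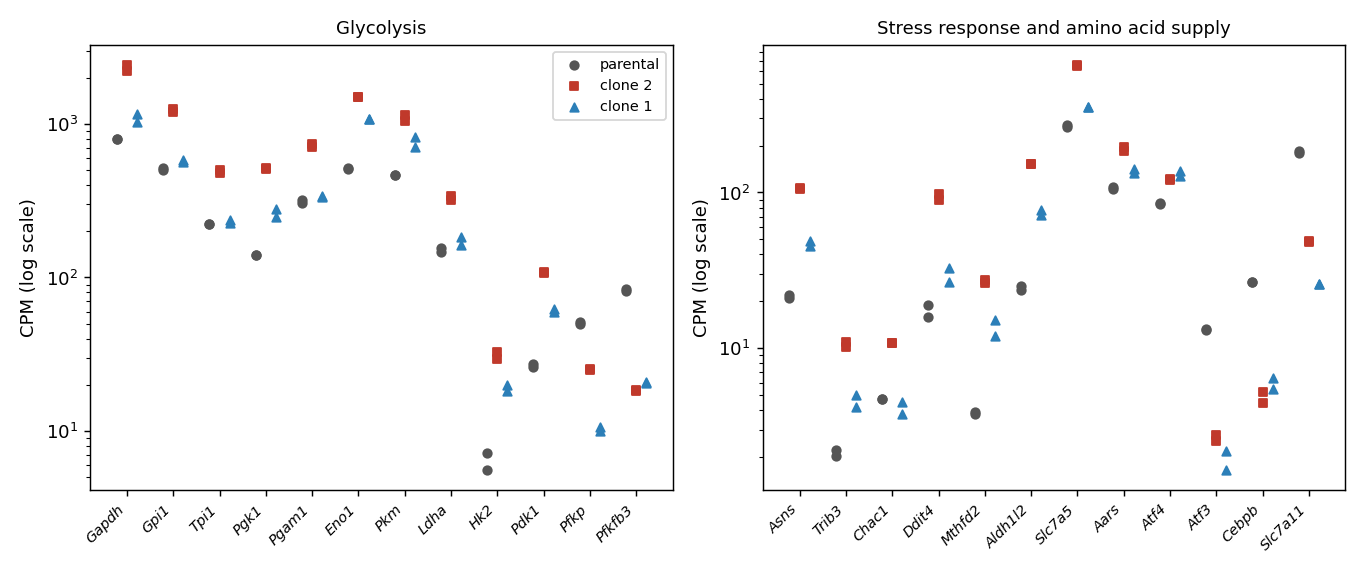
CPM on a log axis in each of the 6 libraries (1 point per library, 2 per group) for 12 genes of glycolysis on the left and 12 of the stress response and amino acid supply on the right. Clone 2 points lie above those of both other groups from Gapdh to Pdk1 and from Asns to Aars, and below the parental points for Pfkp, Pfkfb3, Atf3, Cebpb and Slc7a11.

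The integrated stress response raises ATF4, a transcription factor that induces amino acid synthesis and uptake when translation is slowed. In clone 2, 20 of its 25 measured genes rose and 4 fell (median 1.01), and 18 were higher and 4 lower than in clone 1 (median 0.66). Asns, the asparagine synthetase gene, stood at 21.2 and 21.8 CPM in parental cells, 107 and 105 in clone 2 and 48.9 and 45.2 in clone 1 (2.30 ± 0.054 against parental, adjusted p = 1.86e-15; 1.17 ± 0.051 against clone 1, adjusted p = 5.01e-11). Trib3, a pseudokinase that feeds back on ATF4, stood at 2.03 and 2.22, 11 and 10.2 and 4.19 and 4.98 CPM. Chac1, which breaks down glutathione, was at 4.71 and 4.73 CPM in parental cells, 10.9 and 10.8 in clone 2 and 3.78 and 4.52 in clone 1. In all 3 of these genes the clone 2 libraries were above the libraries of both other groups. Slc7a5, the large neutral amino acid transporter gene, rose by 1.28 ± 0.04 and Stc2, a secreted stanniocalcin, by 2.73 ± 0.11. Atf4 itself rose from 83.8 and 86.1 to 122 and 121 CPM (0.51 ± 0.047), with 138 and 128 in clone 1. Members that fell included Cebpb (-2.46 ± 0.10), Atf3 (-2.31 ± 0.13) and the cystine transporter gene Slc7a11, which went from 184 and 179 to 49 and 48.1 CPM (-1.90 ± 0.046).

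Lists of one-carbon metabolism and tRNA charging had more rises than falls, while amino acid and other transporters had 16 of 47 higher and 23 lower. Of 22 genes of serine, one-carbon and folate metabolism 12 rose and 3 fell, and 8 of those that rose did so by at least 1 on the log2 scale. Mthfd2, the mitochondrial folate enzyme, rose from 3.9 and 3.8 to 26.2 and 27.6 CPM (2.80 ± 0.11), Aldh1l2 from 25.1 and 23.6 to 152 and 153 (2.64 ± 0.054), and the serine synthesis gene Psat1 from 55.6 and 55 to 192 and 197 (1.81 ± 0.046). Both Mthfd2 and Aldh1l2 were also above clone 1, by 0.99 ± 0.10 and 1.03 ± 0.05. Among 22 cytosolic tRNA synthetase genes, which charge tRNAs with amino acids, 12 rose and 3 fell (1 without clone 2 library 1 or parental library 1), and 13 were higher and 0 lower than in clone 1; the methionine, alanine, cysteine and leucine enzymes Mars, Aars, Cars and Lars rose by 0.85 ± 0.064, 0.83 ± 0.047, 0.83 ± 0.063 and 0.77 ± 0.053.

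Promoters of these lists were searched for short motifs, since members moved together. Of the 14904 genes, 9945 had a promoter in the RefSeq table used (GRCm38.p6), which runs from 250 bases before to 50 after a transcript's start. The letters TGATGNAA, as found in the sites bound by ATF4 with its C/EBP partners, were looked for on both strands. They were present in 250 (2.51%) of the 9945 genes, in 8 of 21 genes (38.1%) of the stress response list and in 5 of 14 genes (35.7%) of the tRNA synthetases. Among stress response genes they occurred in 6 of 17 that rose and 2 of 4 that fell, so there the motif was not limited to genes that rose. Among tRNA synthetase genes it occurred in 4 of 6 that rose and 0 of 2 that fell, and 0 of 18 serine and folate genes held it. The letters ACGTG, the core of the site bound by HIF, were present in 2902 (29.2%) of all genes and 13 of 17 genes (76.5%) of the hypoxia list. In that list 10 of 11 genes that rose and 1 of 1 that fell held them. Of glycolysis genes 17 of 25 (68%) held them, with 11 of 16 that rose and 4 of 6 that fell. Some of the same letters also lie in sites of other factors. Another 5 motifs were searched in other lists and are not described, so these 2 were chosen with their shares known. The stress response and hypoxia lists hold genes of responses that ATF4 and HIF run. A share above that of all genes can thus come from how a list was made, whatever clone 2 shows. A match is a description of the sequence only. The sequences below, 5′ to 3′ on the gene's strand, are shown because these genes rose with their lists; capitals mark the motif on either strand, and the first 3 carry TGATGNAA and the last 3 ACGTG.
Asns promoter, chr6:7693160-7693459 (minus strand): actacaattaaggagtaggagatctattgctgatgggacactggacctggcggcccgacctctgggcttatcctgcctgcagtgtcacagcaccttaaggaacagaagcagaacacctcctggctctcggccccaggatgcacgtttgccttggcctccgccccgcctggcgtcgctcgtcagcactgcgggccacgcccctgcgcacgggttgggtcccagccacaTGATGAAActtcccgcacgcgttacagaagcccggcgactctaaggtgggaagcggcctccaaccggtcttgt
Trib3 promoter, chr2:152344011-152344310 (minus strand): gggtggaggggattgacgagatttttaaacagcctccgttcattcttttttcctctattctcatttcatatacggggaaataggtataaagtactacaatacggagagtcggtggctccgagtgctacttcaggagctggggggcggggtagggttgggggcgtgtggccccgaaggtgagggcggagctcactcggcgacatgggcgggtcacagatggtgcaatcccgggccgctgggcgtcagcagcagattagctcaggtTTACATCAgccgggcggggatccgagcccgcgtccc
Aars promoter, chr8:111033592-111033891 (plus strand): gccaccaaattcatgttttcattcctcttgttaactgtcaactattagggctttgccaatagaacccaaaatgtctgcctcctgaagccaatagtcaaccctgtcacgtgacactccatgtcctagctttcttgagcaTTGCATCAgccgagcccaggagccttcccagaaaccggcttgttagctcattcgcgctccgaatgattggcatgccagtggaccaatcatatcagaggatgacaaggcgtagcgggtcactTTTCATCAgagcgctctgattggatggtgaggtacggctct
Pgk1 promoter, chrX:106186850-106187149 (plus strand): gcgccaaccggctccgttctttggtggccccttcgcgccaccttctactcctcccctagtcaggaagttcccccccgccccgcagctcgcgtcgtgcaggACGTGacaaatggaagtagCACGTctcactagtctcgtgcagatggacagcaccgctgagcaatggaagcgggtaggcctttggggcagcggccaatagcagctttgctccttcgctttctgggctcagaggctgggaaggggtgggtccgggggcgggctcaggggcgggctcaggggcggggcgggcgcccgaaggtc
Ldha promoter, chr7:46845554-46845853 (plus strand): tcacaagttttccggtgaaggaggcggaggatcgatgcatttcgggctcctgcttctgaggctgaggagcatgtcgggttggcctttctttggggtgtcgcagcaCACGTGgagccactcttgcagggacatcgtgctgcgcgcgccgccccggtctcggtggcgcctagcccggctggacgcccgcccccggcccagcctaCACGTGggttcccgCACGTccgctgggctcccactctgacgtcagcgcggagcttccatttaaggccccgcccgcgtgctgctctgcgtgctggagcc
Egln3 promoter, chr12:54203825-54204124 (minus strand): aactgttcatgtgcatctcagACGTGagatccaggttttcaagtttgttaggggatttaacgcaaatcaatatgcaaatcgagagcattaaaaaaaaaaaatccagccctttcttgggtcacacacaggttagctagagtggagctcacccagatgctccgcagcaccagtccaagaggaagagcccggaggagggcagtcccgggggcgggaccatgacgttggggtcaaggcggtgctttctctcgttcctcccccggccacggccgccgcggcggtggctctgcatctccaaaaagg

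The Asns, Trib3 and Egln3 windows held 1 copy each, those of Aars and Pgk1 held 2, and that of Ldha held 5, counting both strands. The table holds 2 start sites for Ldha, of which 1 is shown. Aars rose by 0.83 ± 0.047 and Trib3 by 2.32 ± 0.13.

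Nuclear genes of the respiratory chain rose by small amounts. The chain passes electrons through 4 complexes and drives ATP synthase; most of its subunits are encoded in the nucleus and 13 in mitochondrial DNA. Of 36 members of complex I 28 rose and 1 fell (median 0.41), of 9 of complex III 8 rose and 1 fell (0.36), of 14 of complex IV 11 rose (0.53) and of 19 of ATP synthase 14 rose (0.44), with 0 lower in the last 2 lists. In complex II 2 of 4 rose, and 1 without parental library 2. Against clone 1 the same 5 lists had 28, 6, 11, 11 and 3 higher and 1, 1, 0, 1 and 0 lower members, in the order of complexes I, III and IV, ATP synthase and complex II. Uqcr10 of complex III rose from 72 and 71.9 to 132 and 126 CPM (0.84 ± 0.051), Atp5b, the catalytic beta subunit of ATP synthase, from 447 and 436 to 669.6 and 707 (0.64 ± 0.049) and Sdhd of complex II from 65.3 and 65.2 to 84.9 and 86.4 (0.39 ± 0.046). Each of these 3 genes had clone 2 libraries above both parental libraries, as the rule for named genes required. Ndufv3, an accessory subunit of complex I, was at 46.6 and 45.9 CPM in parental cells, 95.3 and 98.1 in clone 2 and 5.17 and 5.87 in clone 1. It therefore rose in clone 2 by 1.06 ± 0.054 and differed from clone 1 by 4.13 ± 0.066 (adjusted p = 1.87e-16). Ndufc2 of complex I (-0.50 ± 0.049) and Uqcrb of complex III (-0.28 ± 0.067) were the 2 that fell.

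Other mitochondrial lists differed in size and direction. Of the 13 protein genes of mitochondrial DNA 4 rose and 9 did not pass, with a median of 0.10, and against clone 1 0 were higher and 2 lower. The 4 became 2 without either clone 2 library, and in a fit of the 4 libraries alone 7 rose and 5 fell. The 78 mitochondrial ribosomal protein genes had 32 higher and 2 lower (median 0.12), and 40 higher and 4 lower than in clone 1. In the TCA cycle 18 of 27 rose and 6 fell; Fh1, the fumarase gene, rose by 0.83 ± 0.051, Idh3a, of isocitrate dehydrogenase, by 0.80 ± 0.046 and Pdha1, of pyruvate dehydrogenase, by 0.68 ± 0.044. Of 22 genes of fatty acid oxidation 5 rose and 11 fell, among them Decr1 (-1.61 ± 0.10); without clone 2 library 1, 7 fell. Protein-coding genes of short total exonic length were also higher, with a median of 0.118 in the lowest quintile of exonic length and -0.066 in the highest; many respiratory chain subunits have short transcripts, and the part of length in their rise was not tested.

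**Figure D3:**
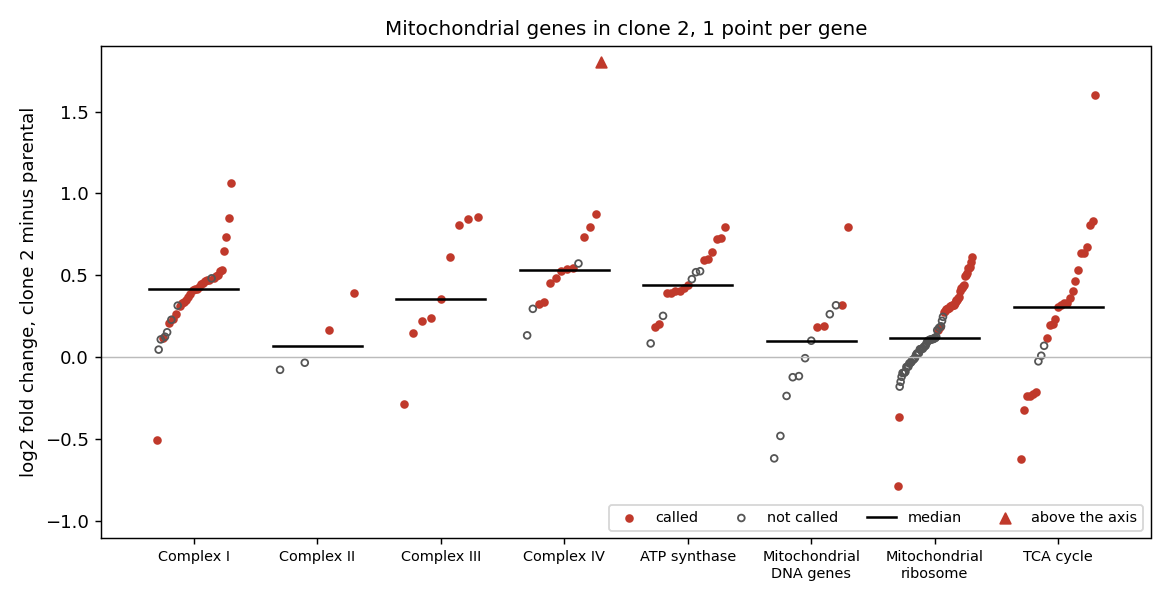
Log2 fold change of clone 2 minus parental for each member of 8 mitochondrial lists, filled where the gene passed the test and open where it did not, with the list's median as a bar; the triangle is Cox6a2, which lies above the axis at 6.99. Medians of complexes I, III and IV and ATP synthase lie between 0.36 and 0.53, while those of mitochondrial DNA genes and mitochondrial ribosomal proteins lie near 0.1.

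Targets of p53, the factor that answers DNA damage with cell cycle arrest or death, were mostly higher in clone 2 than in parental cells and than in clone 1. Of 27 measured targets 18 rose and 5 fell (median 0.66); against clone 1, 18 were higher and 3 lower (median 1.10), 14 of them by at least 1. Cdkn1a (chr17:29090976-29100727, GRCm38), which encodes the cell cycle inhibitor p21, stood at 125 and 125 CPM in parental cells, 277 and 300.4 in clone 2 and 14 and 15.4 in clone 1. It rose by 1.20 ± 0.051 against parental cells (adjusted p = 3.51e-12) and was 4.29 ± 0.06 above clone 1 (adjusted p = 4.36e-17), and the 3 groups did not overlap. Ccng1, cyclin G1, followed the same order with 139.7 and 141, 232 and 223 and 29.2 and 27.6 CPM, as did Eda2r, a death receptor of the TNF family, with 44.5 and 42, 109 and 104 and 10.4 and 9.41. Phlda3 (0.64 ± 0.063), the nuclease gene Aen (0.68 ± 0.06) and the cell death genes Bbc3 (1.07 ± 0.13) and Bax (0.68 ± 0.10) rose as well, and in clone 1 each of them lay below the parental libraries. Trp53cor1, the long noncoding RNA next to Cdkn1a, rose from 4.77 and 4.53 to 25.2 and 25.4 CPM (2.44 ± 0.091), with 1.24 and 1.36 in clone 1. These single targets, other than Trp53cor1, were picked after their values were seen. Trp53 itself was slightly lower, at 100.4 and 106 against 118 and 118 CPM (-0.19 ± 0.046; adjusted p = 0.178 without clone 2 library 1), and Mdm2, its ubiquitin ligase and target, slightly higher (0.23 ± 0.049). The targets that fell were led by the death receptor gene Fas, from 10.6 and 11.5 to 2.39 and 2.56 CPM (-2.16 ± 0.14), and the stress gene Gadd45a (-1.76 ± 0.091). In the list of 24 CDK inhibitors and G1 cyclins, which holds Cdkn1a, 15 rose and 4 fell, and 4 were higher and 13 lower than in clone 1. The cyclin gene Ccnd1 rose from 45.4 and 43.4 to 478 and 489.5 CPM (3.45 ± 0.048) and Ccnd2 from 37.1 and 35.6 to 448 and 447 (3.62 ± 0.046), and the kinase gene Cdk6 by 3.45 ± 0.077. The libraries of clone 2 and parental cells did not overlap for any of these 4 genes, which by the rule for named genes supports nothing.

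**Figure D4:**
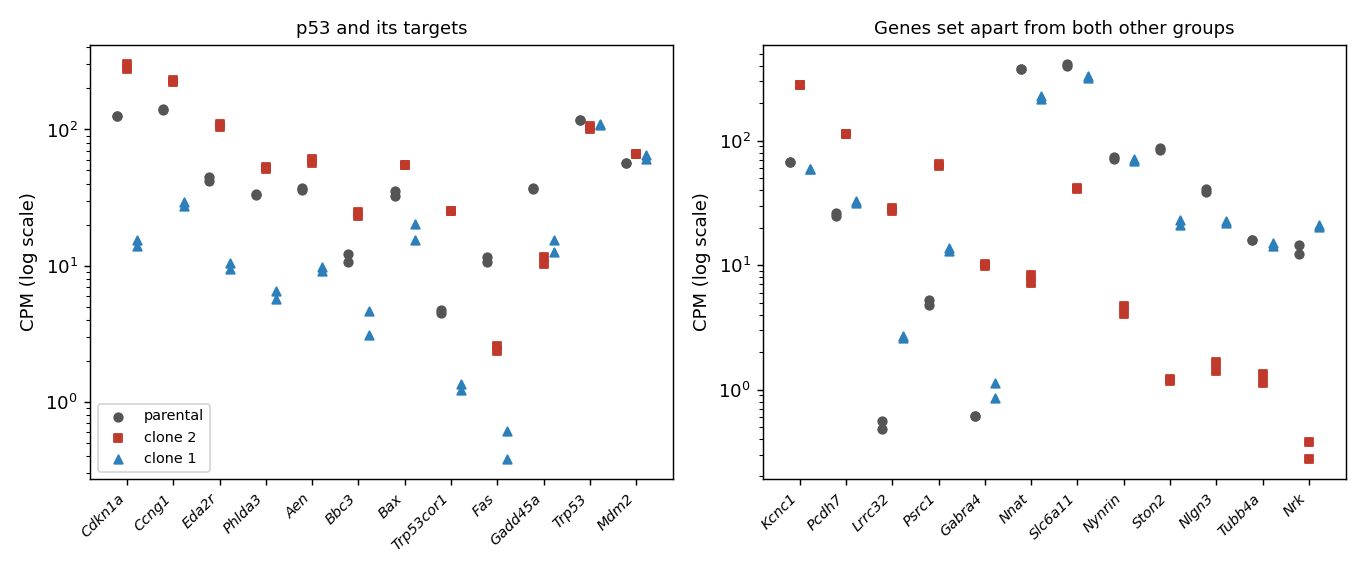
CPM on a log axis in each of the 6 libraries (1 point per library, 2 per group) for p53, Mdm2, Trp53cor1 and 9 targets on the left and for 12 genes in which clone 2 differed from both other groups on the right. From Cdkn1a to Trp53cor1 the clone 2 points lie above the parental points and the clone 1 points below them.

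Genes of DNA replication and repair rose with the mitotic genes. Of 46 replication genes 37 rose and 4 fell (median 0.86; 2 fell without any 1 of the 4 libraries), and of 36 repair genes 32 rose and 0 fell (1.02). Mcm5, of the replicative helicase, rose from 4.71 and 4.94 to 33.2 and 35.8 CPM (2.84 ± 0.079), and Fancd2, of crosslink repair, from 0.904 and 0.916 to 14.8 and 14.1 (3.99 ± 0.12). Against clone 1, 25 of 46 and 21 of 36 members were lower, and 0 and 2 were higher.

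Protein synthesis and turnover lists went in different directions. Among 80 cytosolic ribosomal protein genes 61 rose and 0 fell (median 0.52). Rpl32 rose from 91.6 and 87.8 to 158 and 168 CPM (0.86 ± 0.085). Protein-coding genes of the lowest quintile of exonic length had a median of 0.118, and the part of length in this list's rise was not tested. Genes of ribosome assembly had 4 of 50 higher and 26 lower (median -0.20), such as Noc2l (-0.55 ± 0.067) and the RNA polymerase I subunit gene Polr1b (-0.53 ± 0.071). Proteasome subunits had 4 of 42 higher and 21 lower, led by Psmd1, which fell from 239 and 236 to 129 and 123 CPM (-0.92 ± 0.043). Heat shock genes had 4 of 32 higher and 20 lower, and 1 higher without parental library 2. Bag3, which works with Hspb8 to clear misfolded proteins, stood at 88 and 88.6 CPM in parental cells, 30.1 and 29.2 in clone 2 and 0.153 and 0.0583 in clone 1, so that it fell by 1.57 on the log2 scale and stayed 8.13 ± 0.14 above clone 1.

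Cholesterol synthesis, which SREBP2 controls, rose nearly throughout: 24 of 25 genes rose and 0 fell, with a median of 1.13. Mvd, of the mevalonate steps, rose from 12.6 and 12.7 to 41.4 and 41.8 CPM (1.72 ± 0.075). Efflux and lipid handling genes led in the other direction, with 7 of 18 higher and 11 lower. Apoe, the main apolipoprotein of the brain, fell from 2919 and 2724 to 229 and 250.2 CPM (-3.56 ± 0.14). Abca1, the exporter that loads it, fell from 1164 and 1159 to 219 and 213 CPM (-2.42 ± 0.042). Unlike glycolysis, cholesterol synthesis was not higher than in clone 1, where 2 genes were higher and 14 lower. In fatty acid synthesis 7 of 21 rose and 11 fell; the desaturase gene Scd1 rose by 2.26 ± 0.045, while Thrsp and Gpam, of lipid and triglyceride synthesis, fell by 2.83 and 2.47 on the log2 scale.

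ERK feedback and IGF genes mostly rose, while other growth factor lists did not. ERK, the kinase at the end of the receptor tyrosine kinase cascade, induces its own brakes, and of 27 such feedback genes 20 rose and 5 fell (median 1.28). Dusp6 went from 15.2 and 15 to 321 and 309 CPM, Spry4, a Sprouty inhibitor, from 21.5 and 21.1 to 377 and 385 (4.16 ± 0.048) and the ETS factor gene Etv4 from 16.1 and 16 to 261 and 260.2 (4.02 ± 0.048). Dusp6 and Spry4 were lower than in clone 1, by -0.68 and -0.60. Fgf1, a ligand of FGF receptors, rose from 7.89 and 9.35 to 108 and 110.1 CPM (3.66 ± 0.066). In the IGF pathway 13 of 15 genes rose; besides Igfbp2 and Igfbp3 these included Igfbp4 (4.03 ± 0.054), while Igf2r, which clears IGF2, fell from 102 and 100.1 to 3.77 and 4.14 CPM (-4.68 ± 0.073). Of 23 growth factor receptor genes 10 rose and 12 fell, of 17 ligand genes 7 rose and 7 fell, and of 19 TGF-beta pathway genes 4 rose and 10 fell; the 4 became 2 without parental library 1. Met, the hepatocyte growth factor receptor gene, fell from 137 and 136 to 0.8 and 0.568 CPM (-7.63 ± 0.093).

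Immediate early genes, which respond to stimulation within minutes, fell in 14 of 23 cases and rose in 8, and 16 were lower and 4 higher than in clone 1. Fos fell from 821 and 830.0 to 212 and 213 CPM (-1.96 ± 0.041) and Junb from 154 and 152 to 29.1 and 32.5 (-2.31 ± 0.056). Egr1, in contrast, rose from 719 and 747 to 1485 and 1482 CPM (1.02 ± 0.042), while Nr4a1 fell below both other groups: 51.6 and 53.5 CPM in parental cells, 17.6 and 20.2 in clone 2 and 85.4 and 85.7 in clone 1. Fosb stood at 28 and 26.6, 16.7 and 15.8 and 90.2 and 92.8 CPM in the same order. These 2 genes thus rose in clone 1 and fell in clone 2.

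Cytokine, inflammatory and interferon genes fell more often than they rose. Of 31 genes of cytokine receptors and STAT3 signalling 5 rose and 20 fell, 12 of them by at least 1 on the log2 scale. Besides Osmr, Il6st, the shared receptor chain gp130, fell from 512 and 513 to 120.0 and 123 CPM (-2.08 ± 0.043), Socs3, the feedback inhibitor, from 102 and 98.8 to 4.73 and 4.62 (-4.42 ± 0.067) and the kinase gene Jak1 by 1.04 on the log2 scale. Of 19 NF-kB and inflammation genes 3 rose and 15 fell: the interleukin 1 receptor gene Il1r1 fell from 28.3 and 28.5 to 0.543 and 0.73 CPM (-5.48 ± 0.14) and the complement gene C4b from 399 and 398 to 20.4 and 19.6 (-4.32 ± 0.056), while the alarmin gene Il33 rose from 3.93 and 3.31 to 23.1 and 22.1 (2.64 ± 0.093). In the interferon and antigen presentation list 9 of 33 rose and 19 fell, while with a minimum of 5 CPM 5 rose and 8 fell. Gbp2, an interferon-induced GTPase, fell from 101 and 105 to 1.33 and 1.3 CPM (-6.29 ± 0.15) and Ifit2 by 2.47 on the log2 scale. These 3 lists had medians of -0.11, 0.083 and -0.023 against clone 1, where all genes had -0.012. Members higher and lower than in clone 1 were 5 and 13 of 31, 4 and 6 of 19 and 10 and 7 of 33. Of all genes 22.7% were higher and 28.1% lower than in clone 1. Several of these genes are also expressed by astrocytes, whose marker genes summed to 23466 and 23361 CPM in parental cells and 11774 and 11977 in clone 2; the part of that difference in these falls was not tested.

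Cytoskeleton genes were mostly lower. Of 56 genes of actin and contractility 10 rose and 40 fell (median -0.61). Ahnak, a giant scaffold protein of the cell cortex, fell from 1111 and 1103 to 21.6 and 31.7 CPM (-5.38 ± 0.23), Anxa5, an annexin, from 55.3 and 52.1 to 0.423 and 0.422 (-6.98 ± 0.12) and S100a11 from 18.8 and 18.1 to 0.438 and 0.584 (-5.17 ± 0.15), while the galectin gene Lgals1 rose by 1.55 ± 0.063. Tubulins and microtubule proteins had 5 of 29 higher and 22 lower; Map1b, a neuronal microtubule protein, fell from 253 and 262 to 12.9 and 13.5 CPM (-4.29 ± 0.057) and Tuba4a by 3.93 on the log2 scale. Of 53 cilium genes 12 rose and 28 fell, including the ciliopathy genes Bbs1 (-1.54 ± 0.086) and Tctn2 (-1.49 ± 0.087).

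Lists of matrix and surface genes went both ways. Among 22 collagens 6 rose and 14 fell, with Col4a5 going from 281 and 278 to 53.2 and 51.3 CPM (-2.42 ± 0.047). The brain matrix list split, with 16 of 24 higher and 8 lower: Tnc, a tenascin of the progenitor niche, rose from 54.6 and 53.6 to 371 and 369.5 CPM (2.77 ± 0.044), while Tnr, its relative, fell from 217 and 226 to 64.4 and 61.8 (-1.81 ± 0.052) and Bgn, the proteoglycan biglycan, from 49.7 and 52.5 to 0.408 and 0.26 (-7.24 ± 0.13). Clustered protocadherins, which give neurons a surface identity, had 8 of 42 higher and 20 lower, led by Pcdhgb4 (-5.31 ± 0.085); neighbouring variable exons share the cluster's constant exons, so their counts may be split between genes. Of 38 potassium channel genes 12 rose and 21 fell. Kcna6 fell from 137 and 142 to 5.53 and 5.5 CPM (-4.66 ± 0.069) and Kcnj10, the glial Kir4.1 channel, from 33.8 and 35.1 to 5.03 and 4.98 (-2.78 ± 0.10), while Kcnma1, the large-conductance calcium-activated channel, rose by 2.42 ± 0.06. In neurotransmitter receptors 20 of 42 rose and 15 fell; the muscarinic receptor gene Chrm3 rose from 3.13 and 2.97 to 63.1 and 61.2 CPM (4.35 ± 0.07) and the adrenergic receptor gene Adra2a fell from 49.6 and 50.05 to 1.92 and 2.79 (-4.41 ± 0.16).

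Lineage markers were checked because the label names progenitors. Of 25 neural progenitor markers 13 rose and 10 fell, and the summed level of all 27 listed was 10319.9 and 10336 CPM in parental cells and 12967 and 12909.6 in clone 2. Oligodendrocyte precursor markers had 12 of 18 higher and 6 lower: the lineage factor genes Olig1 and Olig2 rose by 2.68 ± 0.046 and 2.08 ± 0.043, but the receptor gene Pdgfra fell from 56.7 and 56.6 to 31.6 and 30.8 CPM (-0.86 ± 0.052) and Gpr17, of the later precursor, from 154 and 159.6 to 8.23 and 8.65 (-4.22 ± 0.057). The summed CPM of all 20 precursor markers was 4839 and 4896 in parental cells and 11688 and 11884 in clone 2. Markers of oligodendrocytes had 0 of 10 higher (1 without clone 2 library 2) and 9 lower, and the 20 listed summed to 819.7 and 825 against 424 and 429.7 CPM. Of young neuron markers 6 of 24 rose and 15 fell, but the sum of all 40 went the other way, from 3040.4 and 3022 to 3293 and 3284 CPM. Gap43, of growing axons, fell from 76.9 and 75.1 to 0.921 and 1.07 CPM (-6.25 ± 0.092) and Dcx, of migrating young neurons, from 66.6 and 66.9 to 8.53 and 8.34 (-2.98 ± 0.065), while the progenitor and neuroblast factor gene Sox11 rose by 1.19 ± 0.048. For cell types that a neural culture should not hold, the summed CPM of 20 microglia and blood markers was 44.1 and 42 in parental libraries and 41.1 and 44.3 in clone 2; of 21 endothelial and mural markers 339.9 and 331 and 824 and 833, led by Cspg4 and Notch3, which glial precursors and progenitors also express; and of 23 fibroblast markers 613 and 613 and 198 and 201. In these 3 lists 3, 4 and 8 genes reached the level minimum, and 0 lacked a count in all 4 libraries.

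A set of genes placed clone 2 apart from parental cells and from clone 1 alike. By at least 1 on the log2 scale in both contrasts, 150 genes were higher (1.01%) and 260 lower (1.74%). Among those higher, Kcnc1 (chr7:46396497-46438704, GRCm38), a fast potassium channel, stood at 67.4 and 67.8 CPM in parental cells, 279.7 and 283 in clone 2 and 59.4 and 59.2 in clone 1 (2.06 ± 0.043 and 2.24 ± 0.043). Pcdh7, an adhesion protein, stood at 26.1 and 25, 114 and 113 and 32.8 and 31.5 CPM in the same order, and Psrc1, a microtubule protein, at 4.77 and 5.21, 62.1 and 65.6 and 13.1 and 13.8. Gabra4, a GABA receptor subunit, went from 0.608 and 0.611 CPM to 9.87 and 10.1, with 1.13 and 0.86 in clone 1. Ano3, of the anoctamin family, was at 0.53 and 0.696 CPM in parental libraries and 9.78 and 9.61 in clone 2, and had 0 and 3 counts in clone 1. The other 5 of the 10 set furthest apart were Lrrc32, Trp53cor1, Arpp21, Itm2a and Cox6a2.

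Among those lower, Slc6a11 (chr6:114131241-114249952, GRCm38), the GABA transporter GAT-3, stood at 399 and 411 CPM in parental cells, 40.9 and 41.8 in clone 2 and 333 and 322 in clone 1 (-3.29 ± 0.046 and -2.99 ± 0.045). Nnat, the imprinted gene of neuronatin, stood at 379 and 378, 7.22 and 8.36 and 217 and 229 CPM (-5.61 ± 0.065 and -4.84 ± 0.064). Nlgn3, a synaptic neuroligin, was at 40.9 and 39 CPM in parental cells, 1.42 and 1.65 in clone 2 and 22.6 and 21.8 in clone 1, and Tubb4a, a beta tubulin, at 15.8 and 15.9, 1.34 and 1.12 and 15.1 and 14.1. The kinase gene Nrk went from 12.4 and 14.5 to 0.377 and 0.276 CPM, against 21.2 and 20.4 in clone 1. In each of these 5 genes clone 1 lay closer to the parental libraries than clone 2 did, and no library of clone 2 overlapped either group. Their selection by both contrasts favoured this. Edil3, Ston2, Nynrin, Shisa7 and Tmem132b completed the 10.

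Chromosomes 11 and 15 stood apart from the rest. The 1096 members on chromosome 11 had a median log2 fold change of 0.217 against parental cells and 0.235 against clone 1, with 548 higher and 259 lower against parental cells (73.6% called). The 552 members on chromosome 15 had -0.217 against parental cells, with 120 higher and 290 lower. On the other autosomes the medians lay between -0.034 and 0.097. By library, the median log2 ratio to the parental mean (CPM plus a pseudocount of 1) on chromosome 11 was 0.183 and 0.193 in clone 2 and -0.073 and -0.035 in clone 1; on chromosome 15 it was -0.208 and -0.221 in clone 2 and -0.243 and -0.2 in clone 1, and on the remaining autosomes 0.04 and 0.037 in clone 2. The rise on chromosome 11 was thus seen in clone 2 and the fall on chromosome 15 in both clones. Along chromosome 11 all 13 windows of 10 Mb with at least 20 members had a median above 0, from 0.034, which is no higher than the other autosomes, to 0.461; against clone 1, 11 of the 13 were above 0, from -0.206 to 0.46. Along chromosome 15 all 8 had a median below 0, from -0.327 to -0.168. Within quintiles of GC content the chromosome 11 medians were 0.162 to 0.23, against -0.014 to 0.018 on the other autosomes. RNA gives no copy number, and whether the number of chromosomes differed was not tested. No p-value is given, since genes of a chromosome are not replicates of it.

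**Figure D5:**
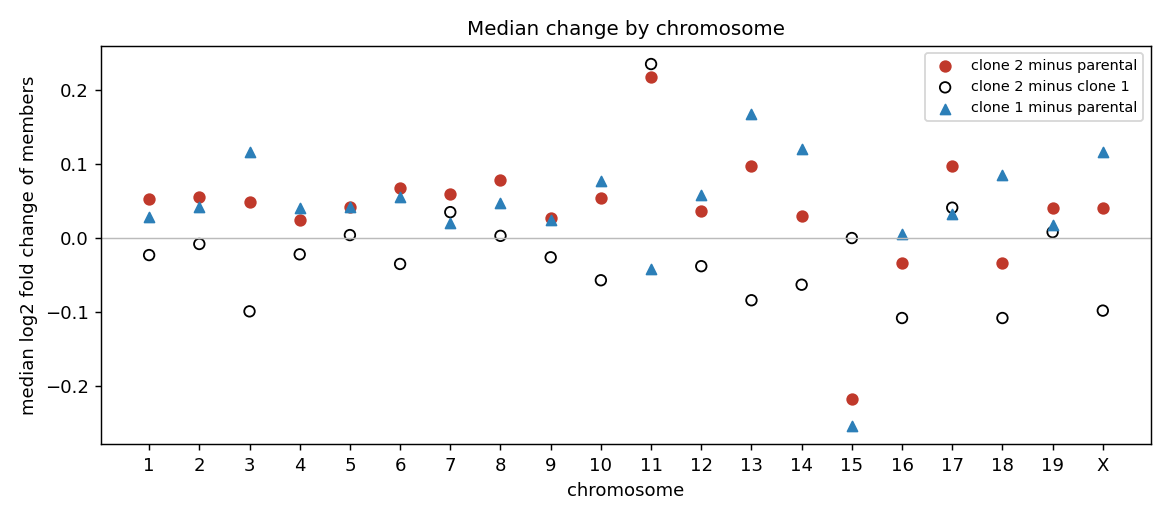
Median log2 fold change of the members on each autosome and X, for clone 2 minus parental, clone 2 minus clone 1 and clone 1 minus parental. Chromosome 11 is the highest in both contrasts of clone 2 (0.217 and 0.235), and chromosome 15 is the lowest in both clones against parental cells.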

How the data were processed

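RNA for 6 libraries labelled as mouse neural progenitor cells was prepared on silica columns and sequenced as total RNA; the labels name an ultra-low-input kit and a standard kit without saying which library had which. Reads were aligned with STAR and counted with featureCounts on GRCm38.p6 (mm10), per the submitters' processing notes; for versions and strand, no setting is given in the sources used here. The authors deposited raw counts per gene.

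The 3 groups were fitted together in edgeR 4.0.16 (R 4.3.3) with trimmed-mean scaling, genes kept by filterByExpr, and robust quasi-likelihood tests adjusted over 23400 genes by Benjamini-Hochberg at 0.05. Values are CPM on scaled library sizes; the level minimum of 1 CPM uses library totals. Gene positions are GENCODE M21. Simulated counts for the contrast with parental cells were run on 23400 genes in 2 rounds. Of 134 genes changed 1.5-fold 76.1% were called, and of 134 changed 2-fold 95.5%. Far fewer genes were changed there than were called in the data, so these shares may not hold for the data. Alternatives were DESeq2 1.42.0, other scalings and filters, fewer libraries, a replicate block and a 2-fold minimum.

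The genes and lists were chosen with earlier results of these data known. Named genes needed a mean of at least 5 CPM, a call, and clone 2 values that all lay above or all lay below the parental values. They are the 15 largest changes each way outside mitosis, astrocyte, histone and predicted genes, up to 4 called genes per list with up to 2 that went the other way, and the 10 each way set furthest from clone 1. Further genes of glycolysis, p53, stress response and immediate early lists, with Jak1, were picked once their values had been seen. Results for the targeted gene and some others are not reported here.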

Additional observations from a re-analysis of the deposited data

Results flagged for a closer look

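Among the 14904 genes, 149 were called in opposite directions in the 2 labelled knockout clones against parental cells with a called difference of at least 1 on the log2 scale; clone 2 was the higher clone for 90 of them and the lower for 59. The difference itself was tested, as clone 2 minus clone 1, with edgeR's quasi-likelihood test and Benjamini-Hochberg adjustment. The genes below are those of them that the text names.

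Of p53 targets, the difference was 4.29 for Cdkn1a, 3.43 for Eda2r, 3.08 for Phlda3, 3 for Ccng1, 2.64 for Aen, 2.62 for Bbc3 and 1.62 for Bax, with 4.28 for the long noncoding RNA Trp53cor1. All 8 rose in clone 2 and fell in clone 1, and the adjusted p was at most 1.07e-06, the value of Bax. Ndufv3 of complex I differed by 4.13, with a rise of 1.06 in clone 2 and -3.06 in clone 1. The channel gene Kcnc1 differed by 2.24, of which clone 1 gave only -0.19 against parental cells. Arpp21, which encodes a phosphoprotein regulated by cyclic AMP, differed by 3.08 and the membrane protein gene Itm2a by 2.73. Ano3 had a fitted difference of 8.64, which depends on the fit's prior count, since clone 1 held 0 and 3 counts.

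Clone 2 was the lower clone for the immediate early genes Fosb, with -2.49, and Nr4a1, with -2.18, and for the kinase gene Nrk, with -5.98. In clone 1 these 3 genes rose against parental cells by 1.75, 0.70 and 0.63.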

How the results depend on the processing

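Of 1820 alternative values for the 166 named genes called against parental cells 1819 kept their call and 0 changed direction, while Trp53 lost its call in 1. Most of these genes were named for their call, large change and non-overlapping libraries in the same data. That their calls held was therefore close to set in advance. Of 1522 values for 139 genes called against clone 1, 67 lost the call, for 26 genes, and 0 changed direction; the cause was not tested. Requiring a log2 fold change of at least 1 left 2834 genes against parental cells (1333 higher, 1501 lower) and 739 against clone 1 (355 higher, 384 lower), by its construction. Leaving out 1 library at a time gave 8479 to 8780 genes against parental cells (4522 to 5025 higher, 3755 to 3976 lower) and 5223 to 8329 against clone 1 (2434 to 3804 higher, 2789 to 4525 lower); the lowest count of lower genes, 2789 against 4192, came without clone 2 library 2. With 2 libraries a group the one that is left is assumed to vary like the other groups. Same-numbered libraries did not deviate together (correlations of -0.015 with parental and 0.019 with clone 1), so numbers do not pair them; with the replicate number as a block 9930 genes were called against parental cells (5306 higher, 4624 lower) and 7596 against clone 1 (3400 higher, 4196 lower). DESeq2 called 9110 and 6693. Other scalings moved the median of all genes to between 0.031 and 0.037 against parental cells and to -0.018 and 0.016 against clone 1, where upper quartile scaling gave more higher than lower genes. Of 1848 alternative counts of list members 69 moved by over 1.5 times, 22 of them with the 5 CPM minimum, which leaves fewer genes, and 23 with a library left out. With the 5 CPM minimum, members lower went from 20 to 13 for cytokine receptors and STAT3, 21 to 10 for potassium channels and 14 to 8 for collagens. They went from 15 to 8 for neurotransmitter receptors and from 9 to 4 for oligodendrocyte markers. In a fit of the 4 libraries alone, proteasome genes higher went from 4 to 7. Without a filter on low counts they went to 9, and ribosome assembly genes higher from 4 to 7. DESeq2 called 2 mitochondrial DNA genes lower. Low counts in clone 2 limit the precision of the largest falls.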
